A study of Mus musculus with 12 samples.

Results

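Metallothioneins and the genes that move zinc across membranes were described here in murine bone marrow macrophages that carried or lacked the microRNA miR-210. The 6 genes were Mt1 and Mt2 (the metallothioneins expressed in most tissues), Mtf1 (the zinc-sensing transcription factor), Slc30a1 (an exporter of zinc from the cytosol) and Slc39a10 and Slc39a14 (importers of zinc into the cytosol). They were chosen by symbol with results of these same 12 libraries already known, and all 6 were found among the 56941 gene rows of the count tables. Their own levels and fold changes are therefore given as a description, with no p-value printed for any of them and nothing read from how many pass a limit, whereas zinc genes outside the 6 are given with the adjusted p of the fit across all genes. Calls of the 6, and whether those calls held in other settings, are description as well and add no support.

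Wild type (WT) and miR-210 knock-out (KO) mice on the C57BL/6J background came from matings of heterozygous parents, whose deletion had been made by crossing a floxed miR-210 line with Gata-1 Cre mice. Monocytes purified from bone marrow by removal of other cell types were differentiated for 7 days in medium with 20% fetal bovine serum and 30% L929-conditioned medium, a source of M-CSF. M2 cells then received 20 ng/mL IL-4 for 72 hours, and M0 cells were kept without it. There were 3 libraries in each of the 4 groups WT M0, KO M0, WT M2 and KO M2, and the age and sex of the mice and the number of mice behind the cultures are not given in the sources used here, so the spread between libraries may be partly technical. The labels give each group a batch name of its own, so that batch and group cannot be told apart.

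Library totals ran from 7930525 to 10167695 counts. Mir210 had 1 to 5 counts in each of the 6 WT libraries and 0 in all 6 KO libraries, and Retnla, a gene induced by IL-4 in murine macrophages, had 0 counts in all M0 libraries and 2161 or more in every M2 library. The 8 macrophage markers summed to between 8232 and 11550 CPM (counts per gene scaled to a TMM-adjusted library total of 1000000). Sums reached at most 19.3 for the 5 dendritic cell markers, 10.23 for the 5 B cell markers and 6.01 for the 9 neutrophil and progenitor markers. They reached at most 5.34 for the 6 T and NK cell markers and 4.43 for the 5 erythroid markers. Ly6g, Cd3e and Fcer1a were at 0 throughout, while Cd4 had 8 to 47 counts a library, S100a8 5 to 33 and Cd79b 46 to 97. KO M0 library 3 stood apart from the other M0 libraries in immediate-early genes: Fos was at 910.4 CPM against 80.1 to 165 in the other 11 libraries, and Egr1 was at 266 against 2.95 to 24.4. Fold changes of Mt1 and Mt2 that use this library, and those of stress-response genes between genotypes in M0, are also given without it. Other values of the KO M0 group include it unless stated.

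Zinc inside cells is held at very low free concentrations. Importers of the SLC39 (ZIP) family bring zinc into the cytosol from outside or from organelles, exporters of the SLC30 (ZnT) family move it out or into vesicles, and metallothioneins, small cysteine-rich proteins, bind what is in excess together with copper and cadmium. When zinc rises, Mtf1 protein binds metal response elements in DNA and switches on Mt1, Mt2 and Slc30a1. Metallothionein genes also respond to oxidative stress, glucocorticoids and inflammatory signals, and in macrophages zinc handling takes part in starving or poisoning ingested microbes.

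Mt1 and Mt2 lie side by side on the same strand of chromosome 8 (GRCm39), Mt2 at chr8:94898819-94900207 and Mt1 at chr8:94905710-94906955, with 5502 bases between them. Mtf1 lies at chr4:124695897-124743593 and Slc30a1 at chr1:191638808-191645361, both on the plus strand, and Slc39a10 at chr1:46845872-46964964 and Slc39a14 at chr14:70540678-70588914, both on the minus strand. All 6 are protein-coding. The core of the metal response element, taken as TGCACNC or TGCGCNC on either strand, was searched in the RefSeq promoter windows of build GRCm38.p6, which run from 250 bases before to 50 bases after the annotated start. Windows were listed for 5 of the 6 genes, and Slc39a14 had none. The 3 windows below are those of the members that held the core, printed on the gene's strand up to 30 bases after the start, with each match in capitals, because Mt1 and Mt2 moved together in the libraries and Slc30a1 is the other textbook target of Mtf1 among the 6. They cover chr8:94178839-94179118 for Mt1, chr8:94172368-94172647 for Mt2 and chr1:191906531-191906810 for Slc30a1, all on the plus strand.
Mt1: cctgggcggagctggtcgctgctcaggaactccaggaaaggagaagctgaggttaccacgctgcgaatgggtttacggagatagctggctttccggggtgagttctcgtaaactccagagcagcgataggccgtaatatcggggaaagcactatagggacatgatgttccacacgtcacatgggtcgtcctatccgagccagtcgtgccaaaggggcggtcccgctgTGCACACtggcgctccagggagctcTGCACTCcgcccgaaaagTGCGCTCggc
Mt2: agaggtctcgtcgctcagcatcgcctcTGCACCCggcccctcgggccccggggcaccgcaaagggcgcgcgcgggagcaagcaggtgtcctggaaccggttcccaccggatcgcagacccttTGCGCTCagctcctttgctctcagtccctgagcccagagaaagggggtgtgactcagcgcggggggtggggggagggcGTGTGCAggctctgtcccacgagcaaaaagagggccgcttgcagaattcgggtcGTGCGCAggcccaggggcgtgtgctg
Slc30a1: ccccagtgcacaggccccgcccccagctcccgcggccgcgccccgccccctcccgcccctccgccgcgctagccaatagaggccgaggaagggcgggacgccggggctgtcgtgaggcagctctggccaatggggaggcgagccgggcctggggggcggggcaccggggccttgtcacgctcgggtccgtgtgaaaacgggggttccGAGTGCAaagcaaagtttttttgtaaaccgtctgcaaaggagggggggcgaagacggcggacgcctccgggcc

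The Mt1 window held 3 matches, all on the gene's strand, starting 23 bases before and at bases 3 and 21 after the start. The Mt2 window held 4, of which 2 were on the gene's strand (starting 223 and 128 bases before the start) and 2 on the other strand. Slc30a1 had 2 matches on the other strand, of which the second, at bases 31 to 37 after the start, falls just past the printed stretch. No matches overlapped. Of all 32851 windows in the table, 25.7% held at least 1 match, 7.11% at least 2, 1.97% at least 3 and 0.517% at least 4. The windows of Mtf1 and Slc39a10 held none. These are letter matches in a window set by 1 annotated start per row, and binding was not measured. That start lay 7 bases into the canonical transcript for Mt1, 114 for Mt2 and 50 for Slc30a1. Which starts these cells use was not examined, so elements beside any other start can lie outside the windows. A match printed after the annotated start may thus lie before another start.

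The deleted microRNA was looked at in the same way. Its mature 3p strand is shown with the seed, bases 2 to 8, in capitals.
mmu-miR-210-3p: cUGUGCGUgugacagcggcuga

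A match to this seed (ACGCACA) was present after the stop codon in 3.5% of 20637 protein-coding canonical transcripts, and in 0 of the 6 genes. The members' searched stretches ran from 134 bases for Mt1 to 5457 for Mtf1. Among the other 23 genes of the zinc families, Slc39a6 had 1 match.

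Metallothionein transcripts were the most abundant of the 6. Levels between genes were compared as TMM-scaled CPM per kilobase of the Ensembl canonical transcript. In WT M0 cells Mt1 stood at 176 ± 14.7 (SD, n = 3), Mt2 at 76.9 ± 5.32, Slc30a1 at 19.5 ± 2.21, Slc39a14 at 10.5 ± 1.42, Mtf1 at 6.79 ± 0.236 and Slc39a10 at 6.56 ± 0.433. In this order only Mtf1 and Slc39a10 overlapped between libraries. In WT M2 cells Slc39a10 came next after Slc30a1, at 15.8 ± 0.581, above Slc39a14 at 8.78 ± 1.2 and Mtf1 at 5.86 ± 0.496, with no overlap between neighbours. The KO groups had the same orders as WT in each state, without overlap between neighbours. Over all 12 libraries Mt1 ranked 284 of 28373 genes with reads, Mt2 820 and Mtf1 8235.

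All 6 genes passed the filter on low counts in every comparison, with 277 to 2100 counts per library, for which counting alone gives an error of 2.18 to 6.01%. Stretches of 50 bases shared with other annotated genes made up at most 0.429% of any of the 6 canonical transcripts, and Mt1 shared none. Mtf1 and Slc39a10 overlap other annotated genes on the same strand (Gm56097 for Mtf1, Gm28151 and others for Slc39a10).

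In M0 macrophages the question was what the loss of miR-210 goes with in the absence of IL-4. Mt2 was 1.59-fold higher in KO cells and Mt1 1.35-fold, while the other 4 genes differed by at most 1.11-fold in either direction. Mt2 was at 52.9, 59.7 and 59.9 CPM in the WT M0 libraries and at 99.2, 73.6 and 103 in the KO M0 libraries. No KO library fell into the WT range. The log2 fold change was 0.67 (SE 0.12). In RNA pooled over a culture, fewer cells of a type and less RNA per cell cannot be told apart. Mt1 stood at 134, 123 and 146 CPM in the WT M0 libraries and at 187, 148 and 209 CPM in the KO M0 libraries. The groups did not overlap, but KO library 2 lay close above the highest WT library. The log2 fold change of Mt1 was 0.43 (SE 0.12).

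**Figure D1:**
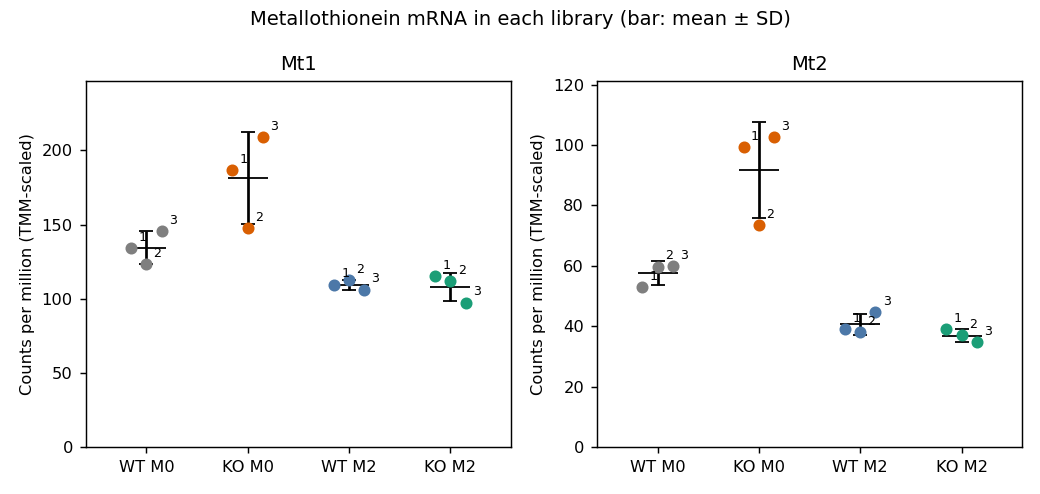
TMM-scaled CPM of Mt1 (left) and Mt2 (right) in each of the 12 libraries, numbered 1 to 3 within a group, with the group mean and SD as bars. The KO M0 libraries sit highest for both genes, with library 3 at the top, and all 6 M2 libraries lie below all 6 M0 libraries.

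Calls required an adjusted p below 0.05 together with a change of over 1.2-fold in either direction. In M0 this held for Mt2 alone of the 6, in a comparison that called 65 of 14089 genes (0.461%). Since Mt2 was picked with this result known, nothing is read from the count. Without KO M0 library 3, which stood apart above, Mt2 was at a log2 fold change of 0.58 and Mt1 at 0.31, and neither met the limits. The Mt2 call was also lost without KO M0 library 1 (0.62), WT M0 library 1 (0.62) or WT M0 library 3 (0.70). Without KO M0 library 2 both genes were called, at 0.81 for Mt2 and 0.56 for Mt1. In DESeq2 both were called.

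Slc39a10 was the only other member whose KO and WT libraries did not overlap in M0, at 44.8, 39.3 and 42.7 CPM in WT and 38.4, 39.2 and 36.5 in KO. The lowest WT library and the highest KO library almost touched, and the log2 fold change was -0.15 (SE 0.09). Non-overlap in either direction held for 3 of the 6 and for 14.4% of all genes tested. Slc39a14 (log2 fold change 0.14, SE 0.10), Slc30a1 (0.10, SE 0.09) and Mtf1 (0.04, SE 0.08) had overlapping libraries.

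Genes known to respond to stresses that also act on metallothionein genes were looked at in the same comparison. All 8 NRF2 target genes, which answer to oxidative stress, had positive log2 fold changes in KO M0 cells, with a median of 0.50 against 0.0005 for all genes, and 2 were called: Gsr, glutathione reductase (0.625, SE 0.10, adjusted p = 0.0181), and Txnrd1, thioredoxin reductase (0.51, SE 0.09, adjusted p = 0.0375). Their summed level was 1249, 990.0 and 1081 CPM in WT M0 and 1520, 1461 and 1581 in KO M0, so that it was above WT in KO libraries 1 and 2 as well as in library 3. Without KO M0 library 3 all 8 were still positive (median 0.44), but edgeR called none, with 6 at an unadjusted p under 0.05: Gsr was at 0.64 (adjusted p = 0.0687) and Txnrd1 at 0.43 (adjusted p = 0.158). All 8 HIF target genes were likewise positive (median 0.28), with Egln3, an oxygen-sensing prolyl hydroxylase, called (0.87, SE 0.12, adjusted p = 0.0104). The HIF sum was 897 to 911 in WT M0, 1136 and 1029 in KO M0 libraries 1 and 2, and 1349 in KO M0 library 3. Without that library all 8 were positive (median 0.25) and Egln3 was called at 0.89 (adjusted p = 0.0335). Of the 8 glucocorticoid response genes 4 were positive with KO M0 library 3 and 2 without it, Dusp1 going from 0.77 to -0.52 and Per1 from 0.43 to -0.07, and none passed an adjusted p of 0.05 by edgeR either way (0 and 1 at an unadjusted p under 0.05). The part of these programmes in the metallothionein values was not tested. From the same data the paper reports reactive oxygen species and hypoxia pathways as higher in KO M0 cells. It names Mt2 among the cell-cycle checkpoint genes that were higher there and describes these as involved in cycle arrest. The paper also lists Gsr and Txnrd1 as predicted miR-210 targets that were higher in KO M0 cells. Whether they rose as targets or with the NRF2 list was not tested.

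In M2 macrophages the same genotypes were compared after IL-4. None of the 6 was called by edgeR or by DESeq2, in a comparison that called 137 of 13980 genes (0.980%). At an unadjusted p under 0.05 there were 1 of the 6 and 1498 of the 13980 genes, and nothing is read from that count. Mt1 was at 109.5, 112 and 106 CPM in WT M2 and at 115, 112 and 97.4 in KO M2. Mt2 was at 39.1, 38.1 and 44.6 in WT M2 and at 39.0, 36.9 and 34.7 in KO M2. Both pairs overlapped, with log2 fold changes of -0.01 (SE 0.07) for Mt1 and -0.13 (SE 0.08) for Mt2.

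Slc30a1 was the only member without overlap between genotypes in M2, at 93.1, 97.6 and 105 CPM in WT and 112, 109 and 108 in KO. Its log2 fold change was 0.16 (SE 0.06), below the fold limit of a call. Over all genes 16.0% had non-overlapping groups. The log2 fold changes of Slc39a14 (-0.19, SE 0.10), Slc39a10 (-0.04, SE 0.07) and Mtf1 (0.02, SE 0.09) came from overlapping libraries.

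IL-4 polarization was examined within each genotype. In WT cells Slc39a10 was 2.42-fold higher with IL-4, while Mt2 was 1.42-fold and Mt1 1.22-fold lower. In KO cells Slc39a10 was 2.58-fold higher, Mt2 2.49-fold lower, Mt1 1.67-fold lower and Slc39a14 1.52-fold lower. These 3 members in WT and 4 in KO were the ones called, in comparisons that called 35.4% of 14266 genes in WT and 28.4% of 14331 genes in KO. The summed macrophage markers were at 9978 to 11550 CPM in M0 and 8232 to 9251 in M2, and the 5 dendritic cell markers at no more than 1.32 in M0 and 11.1 to 19.3 in M2, nearly all of it Zbtb46, with Flt3 at 0 in every M2 library. Their part in the values of the 6 genes was not tested.

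Slc39a10, also known as ZIP10, showed the clearest separation. Its levels were 39.3 to 44.8 CPM in the WT M0 libraries and 99.7, 99.0 and 106 CPM in the WT M2 libraries, a log2 fold change of 1.27 (SE 0.07). In KO cells they were 36.5 to 39.2 in M0 and 105, 98.1 and 91.0 in M2, a log2 fold change of 1.37 (SE 0.09). The lowest M2 library, at 91.0, lay far above the highest M0 library, at 44.8. The call held without each of the libraries in turn, with log2 fold changes of 1.22 to 1.31 in WT and 1.32 to 1.41 in KO.

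**Figure D2:**
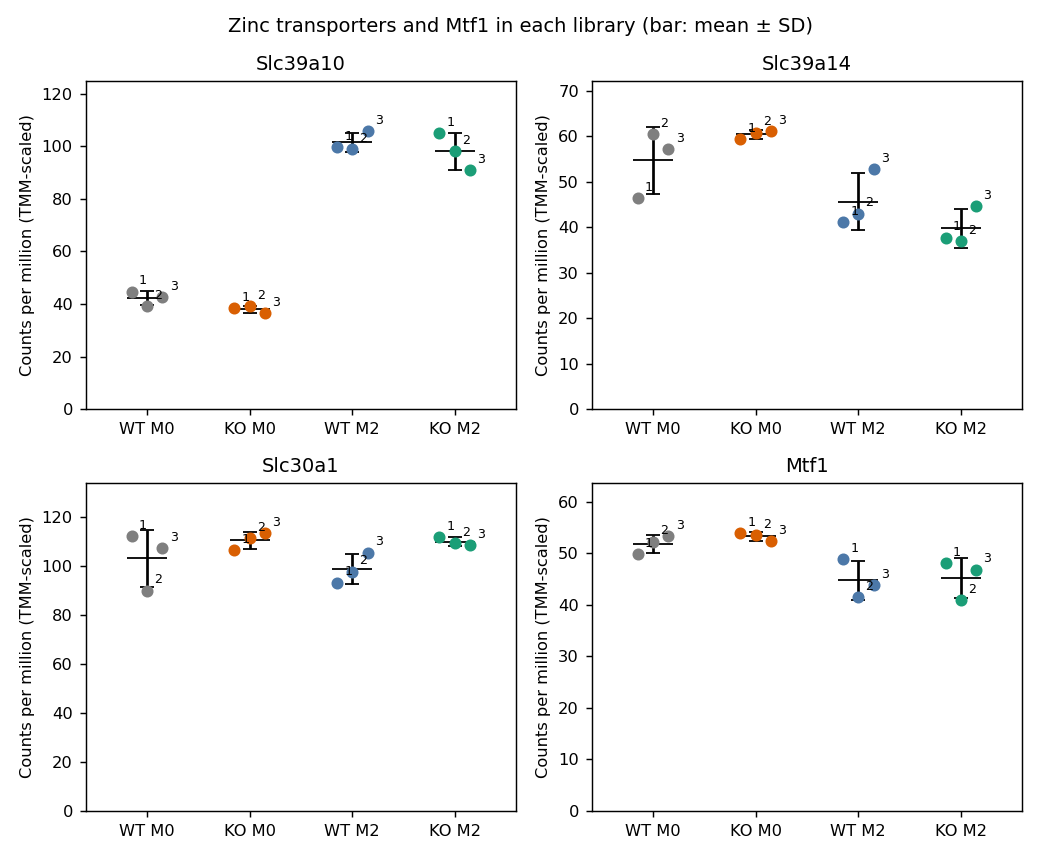
TMM-scaled CPM of Slc39a10, Slc39a14, Slc30a1 and Mtf1 in each of the 12 libraries, numbered 1 to 3 within a group, with the group mean and SD as bars. Slc39a10 forms a low M0 and a high M2 level in both genotypes, Slc39a14 is lowest in KO M2, and Slc30a1 stays between 89.9 and 113 CPM throughout.

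For the metallothioneins the M2 levels of both genotypes were close to each other and the M0 levels were not. The log2 fold change with IL-4 was -0.50 (SE 0.09) for Mt2 in WT and -1.32 (SE 0.12) in KO. For Mt1 it was -0.29 (SE 0.07) in WT and -0.74 (SE 0.12) in KO. All M2 libraries lay below all M0 libraries for both genes. The Mt1 call in WT was lost without WT M0 library 3 (-0.23). Without KO M0 library 3, which stood apart, the KO values were -1.24 for Mt2 and -0.64 for Mt1, and both were still called. Summed Mt1 and Mt2 made up 0.0185 to 0.0208% of the counts of WT M0 libraries, 0.0229 to 0.0309% of those of KO M0 and 0.0130 to 0.0151% in M2.

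Slc39a14, or ZIP14, which carries iron and manganese as well as zinc, was at 46.4, 60.5 and 57.2 CPM in the WT M0 libraries and at 41.1, 43.0 and 52.7 CPM in the WT M2 libraries. These groups overlapped, and the log2 fold change of -0.26 (SE 0.11) was not called, although it was without WT M0 library 1 (-0.37) or WT M2 library 3 (-0.37). In KO cells it was at 59.3, 60.8 and 61.2 in M0 and 37.7, 36.9 and 44.6 in M2, with no overlap and a log2 fold change of -0.61 (SE 0.09). Leaving out any library kept this KO call.

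Mtf1 had log2 fold changes with IL-4 of -0.21 (SE 0.08) in WT and -0.24 (SE 0.09) in KO. Its M0 libraries ran from 49.9 to 54.0 CPM and its M2 libraries from 40.9 to 48.9, without overlap in either genotype, and both values were under the fold limit. Slc30a1 was the steadiest of the 6, with log2 fold changes of -0.06 (SE 0.08) and -0.01 (SE 0.07). Its highest library was 1.26 times its lowest, against 2.96 times for Mt2 and 2.9 times for Slc39a10. Non-overlap between M0 and M2 held for 4 of the 6 in WT and 5 in KO, against 57.0% and 46.3% of all genes tested.

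**Figure D3:**
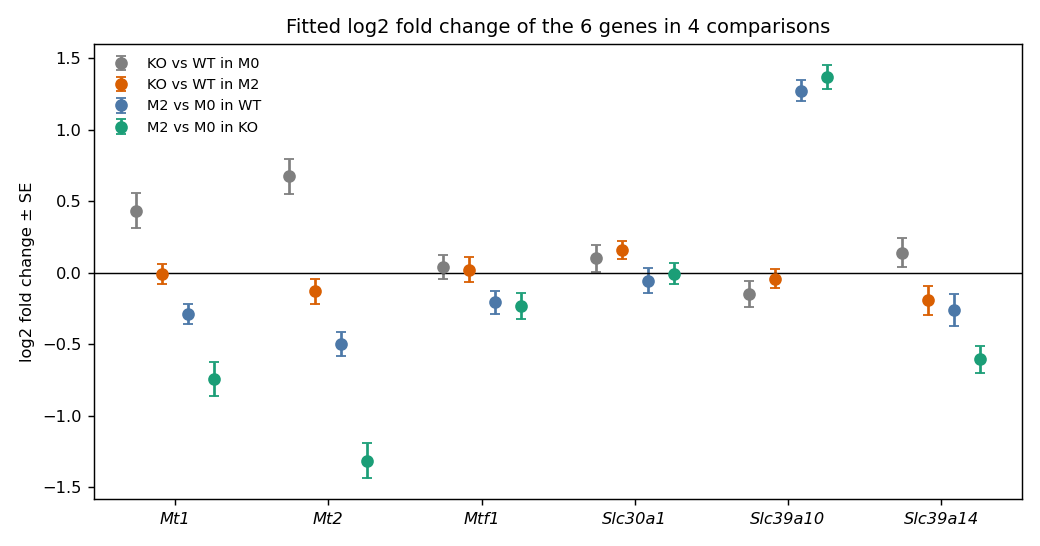
Fitted log2 fold changes with standard errors of the 6 genes in KO against WT M0 cells, KO against WT M2 cells, and M2 against M0 cells in WT and in KO. Mt1 and Mt2 are above 0 only for KO against WT in M0 and furthest below 0 for IL-4 in KO, and Slc39a10 stands at 1.27 and 1.37 for IL-4 in WT and KO.

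Whether the response to IL-4 differed between genotypes was tested as an interaction over all 12 libraries. By edgeR 0 of 14825 genes were called (0%), with 1327 at an unadjusted p under 0.05, and DESeq2 called 74. None of the 6 was called by edgeR. Mt2 had an interaction log2 value of -0.81 (SE 0.16), Mt1 -0.45 (SE 0.15) and Slc39a14 -0.34 (SE 0.15). Slc39a10 (0.10, SE 0.11), Slc30a1 (0.05, SE 0.11) and Mtf1 (-0.02, SE 0.12) were near 0. DESeq2 called Mt2. Without KO M0 library 3 the value was -0.73 for Mt2 and -0.34 for Mt1. EdgeR called Mt2 without WT M0 library 2 (-0.85) and without KO M0 library 2 (-0.95), the latter together with Mt1 (-0.58), and it called both genes when low counts were not filtered out. The 2 IL-4 responses and the 2 genotype differences share their libraries, so these values are not independent of those above.

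The balance of the 2 metallothioneins does not depend on library size. Mt2 made up 28.3, 32.6 and 29.1% of the Mt1 and Mt2 counts in the WT M0 libraries and 34.7, 33.3 and 32.9% in the KO M0 libraries. After IL-4 it made up 26.3, 25.3 and 29.6% in WT and 25.3, 24.8 and 26.3% in KO. All KO M0 libraries lay above all others, with WT M0 library 2 closest to them, and the WT M0 and WT M2 ranges overlapped. The difference of the means, M2 minus M0, was -8.17 percentage points in KO (SE 0.689) and -2.94 in WT (SE 1.84). KO M0 exceeded WT M0 by 3.6 points (SE 1.42), and by 3.94 without KO M0 library 3. These shares come from the genes the choice was made on and were not tested.

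**Figure D4:**
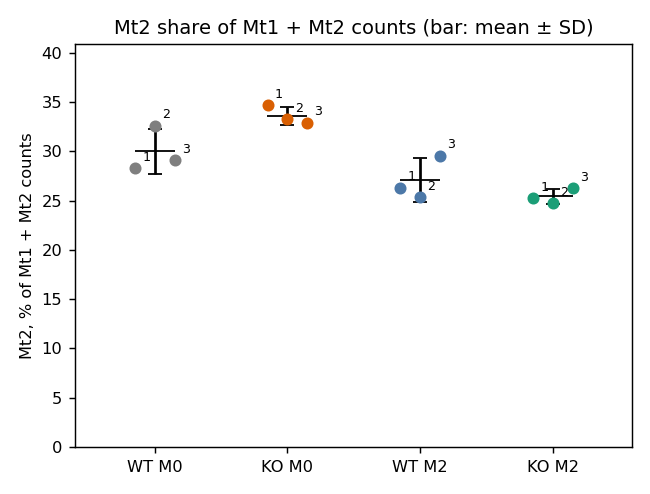
Mt2 as a percentage of the summed Mt1 and Mt2 counts in each of the 12 libraries, numbered 1 to 3 within a group, with the group mean and SD as bars. The 3 KO M0 libraries are at 32.9 to 34.7% and the 3 KO M2 libraries at 24.8 to 26.3%, with the WT libraries between 25.3 and 32.6%.

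The wider families give the setting of the 6 genes. The metallothionein, SLC30 and SLC39 families and Mtf1 hold 29 genes, of which 20 to 22 passed the filter in each comparison. Mt4, Slc30a2, Slc30a8 and Slc30a10 had 0 counts in all libraries, and Slc30a3 had a single count in 1 library. Mt3, the metallothionein best known from brain, had 0 or 1 count in each M0 library, 9, 10 and 18 counts in WT M2 and 11, 8 and 6 in KO M2, too few to be tested. Per kilobase the highest zinc transporter was Slc39a1, the importer ZIP1, at 131 CPM over the 12 libraries, between Mt1 (175) and Mt2 (75.8). About 23.7% of its 50-base stretches are shared with a pseudogene and another annotated gene, so its level is less certain.

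Between genotypes Mt2 in M0 was the only family gene called. There 20 were tested (median log2 fold change 0.06), and 65 of all 14089 genes were called (0.461%). Mt2 was chosen with this result known, so nothing is read from the family count. In M2 21 were tested (median -0.01) and 0 were called by edgeR or DESeq2, next to 137 of all 13980 genes by edgeR (0.980%). An unadjusted p under 0.05 held for 3 of the 21 and for 1498 of the 13980. The uncalled values ran from -0.23 to 0.43 in M0 and from -0.19 to 0.57 in M2. Outside the 6, Slc39a4 in M0 and Slc39a8 in M2 had the largest values. Slc39a4, the importer ZIP4 best known from zinc uptake in the intestine, was at 38.3, 43.0 and 45.4 CPM in WT M0 and at 58.0, 48.2 and 60.4 in KO M0 (log2 fold change 0.39, SE 0.11, adjusted p = 0.185). Slc39a8 was at 6.96, 5.37 and 6.81 in WT M2 and at 8.58, 10.0 and 9.52 in KO M2 (0.57, SE 0.16, adjusted p = 0.115). Neither pair of groups overlapped.

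With IL-4, 6 family genes rose and 5 fell in WT, of 20 tested, and 5 rose and 5 fell in KO, of 21 tested, while 35.4% and 28.4% of all genes were called. These totals include the 6 chosen genes, of which 1 rose and 2 fell in WT and 1 rose and 3 fell in KO. Nothing is therefore read from the totals. The medians of all tested family genes were -0.06 and -0.03, next to -0.0012 and -0.0078 for all genes. Slc30a4, or ZnT4, which loads zinc into vesicles, had the largest rise, from 23.9 to 26.7 CPM in WT M0 to 242 to 283 in WT M2 and from 24.6 to 27.6 in KO M0 to 214.5 to 255 in KO M2. This was 10.5-fold in WT (log2 3.39, SE 0.08, adjusted p = 4.38e-12) and 9.12-fold in KO (log2 3.19, SE 0.10, adjusted p = 1.17e-10). Slc39a6, the close relative of Slc39a10, rose by a log2 of 0.99 in WT (SE 0.07, adjusted p = 6.26e-08) and 1.02 in KO (SE 0.08, adjusted p = 4.51e-07).

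Other importers fell. Slc39a4 was at 13.2 to 16.5 CPM in WT M2 and 12.7 to 15.8 in KO M2, a log2 fold change of -1.47 in WT (SE 0.11, adjusted p = 7.93e-08) and -1.95 in KO (SE 0.12, adjusted p = 5.98e-08). Slc39a8, the importer ZIP8, fell from 19.8 to 22.7 in WT M0 to 5.37 to 6.96 in WT M2 (log2 -1.71, SE 0.14, adjusted p = 2.78e-07) and from 20.8 to 23.8 in KO M0 to 8.58 to 10.0 in KO M2 (log2 -1.25, SE 0.13, adjusted p = 6.00e-06). Outside the chosen genes the SLC39 family did not share a direction, as Slc39a6 rose while Slc39a4 and Slc39a8 fell. In the whole family 4 genes rose and 2 fell in WT, of 11 tested, and 4 rose and 3 fell in KO, of 12 tested. Of all genes, 35.4% and 28.4% were called. The family counts include Slc39a10, which rose in both, and Slc39a14, which fell in KO, so nothing is read from them. Smaller rises were seen for Slc39a1 (0.39 in WT, adjusted p = 0.000199, and 0.34 in KO, adjusted p = 0.00749) and for Slc39a11 (0.48 in WT, adjusted p = 7.44e-05, and 0.35 in KO, adjusted p = 0.00845). Slc30a6 rose in WT (0.36, adjusted p = 0.0222) and was at 0.27 in KO (adjusted p = 0.108), and Slc30a9 fell in WT (-0.39, adjusted p = 0.000145) and was at -0.26 in KO (adjusted p = 0.0144), within the fold limit. The family genes not called lay between -0.26 and 0.17 in WT and between -0.26 and 0.45 in KO.

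**Figure D5:**
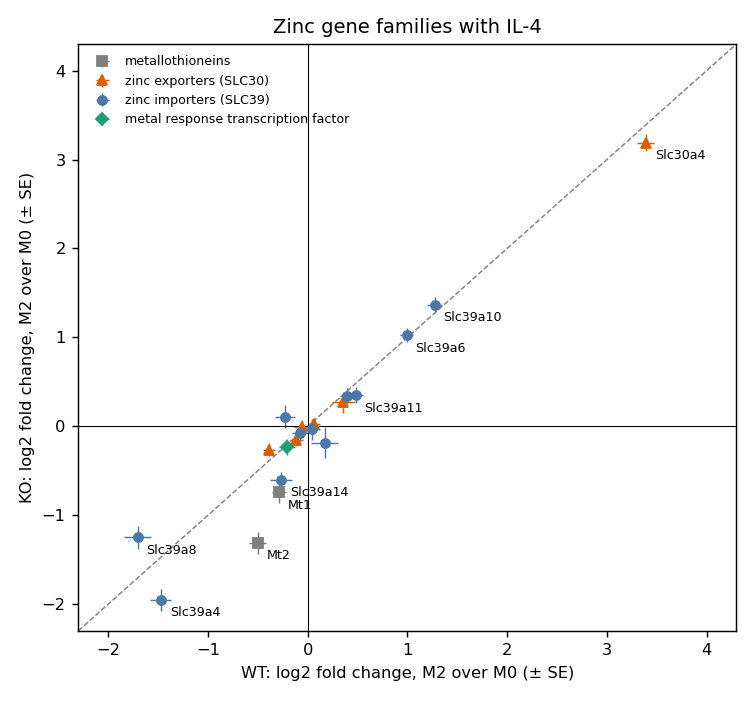
Log2 fold change with IL-4 in WT (horizontal axis) and in KO (vertical axis) of the tested metallothionein, SLC30 and SLC39 genes and Mtf1, with standard errors and a dashed line of equal values. Slc30a4, Slc39a10 and Slc39a6 lie near the line at the upper right, Slc39a4, Slc39a14, Mt1 and Mt2 lie below it, and Slc39a8 lies above it.

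Whether these family genes answered IL-4 differently in KO was read from the interaction fit. None of the 22 family genes tested was called by edgeR, where 0 of all 14825 genes were called, and DESeq2 called Mt2. An unadjusted p under 0.05 held for 5 of the 22, of which 3 belong to the 6 chosen genes, and for 1327 of the 14825. The interaction value was -0.47 (SE 0.17, adjusted p = 0.365) for Slc39a4 and 0.46 (SE 0.18, adjusted p = 0.434) for Slc39a8.

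The genes whose levels ran most closely with those of 3 members over the 12 libraries were listed from 14011 genes by Pearson's r of log2 CPM, as a description. For Mt1 they were Rnu11 (r = 0.968), Zfand3 (0.967), Mt2 (0.957), Icmt (0.954) and Rab20 (0.953). For Mt2 they included Adap1 (0.972), Zfp746 (0.967), Rab20 (0.957) and Mtap (0.957). For Slc39a10 they were Kcnk6 (0.997), Irf4 (0.996), Tlr1 (0.996), Gm41609 (0.996) and Plekha1 (0.995). The 12 points share the split by IL-4, and no gene of the list was tested. Rab20 was on the lists of both Mt1 and Mt2. Mt2 was on the list of Mt1, while Mt1 was not among the first 5 for Mt2. The r between Mt1 and Mt2 is the same either way, 0.957, and Mtap, the last of the 5 for Mt2, had the same printed value.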

How the data were processed

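The deposited tables hold raw read counts per Ensembl gene for 12 stranded, rRNA-depleted paired-end libraries. The authors trimmed reads with Trimmomatic, removed duplicates with Picard, aligned with STAR to GRCm39 and counted with featureCounts. Their normalized counts, a signal made by the authors with DESeq2, served only as an alternative scale for the members' levels. All columns were used, and the counts of the tables were identical where they overlapped (0 differing cells). Of 56941 gene ids, 56323 matched the annotation.

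Each pair of groups (3 against 3 libraries) was fitted with edgeR 4.0.16 (quasi-likelihood test, TMM scaling, filterByExpr) in R 4.3.3, and the interaction over all 12 libraries. Adjusted p-values are Benjamini-Hochberg over all genes tested. A call needed an adjusted p under 0.05 and a change of over 1.2-fold. Polarization calls also needed a protein-coding gene with an average TMM-scaled count over 10, and interaction calls the adjusted p alone. DESeq2 1.42.0, RLE and upper-quartile scaling, no filter, 1 fit of all libraries, other fold limits and leaving out each library were alternatives, as was leaving KO M0 library 3 out of the stress lists, chosen after seeing the data.

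Depth was 7930525 to 10167695 counts a library, and counting error covers reads only, which are not independent molecules. Library numbers name columns of a group and pair nothing. The 6 genes, the other gene lists and the tests were chosen with earlier results of these data known. All 6 are named, as are family genes called in any comparison, up to 4 genes of smallest p in each other list, and the 5 genes nearest in pattern to each of Mt1, Mt2 and Slc39a10 (log2 of CPM plus 0.5), of which 1 for Mt2 is not reported here. Family genes outside this rule were named after their values were seen (Slc39a4 and Slc39a8 between genotypes, Mt3, and genes at 0), as was Txnrd1 with IL-4 and the immediate-early genes that set KO M0 library 3 apart. Permutation tests of the Mt2 share had been planned and are not printed, because both genes were chosen with their levels known. The fitting steps were tested on simulated data. Sequences are from RefSeq tables of GRCm38.p6.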

Additional observations from a re-analysis of the deposited data

How the results depend on the processing

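Of 68 alternative counts of called members, 53 lay within 1.5 times the reported one, as did 52 of 68 for the zinc families. Of 590 fold changes of single genes 545 kept direction and call, 21 lost a call, 14 gained one and 10 changed sign. All 192 alternative log2 ratios of mean member levels moved by less than the spread between libraries. So did the differences in Mt2 share without 1 library. Most of these settings leave out 1 library, which can hardly move a mean by more than that spread, so nothing is read from them. With counts divided by transcript length, the differences in Mt2 share kept their direction.

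For KO against WT in M0 the number of genes called was 209 in DESeq2, 532 with no filter on low counts, 248 with all libraries in 1 fit, 27 at a log2 fold change over 1 and 20 to 302 without 1 library. In the same order, members called were 2, 2, 2, 0 and 0 to 2, and family genes 2, 3, 2, 0 and 0 to 2. In M2 the counts were 360 with no filter (1 family gene), 60 in the fit of all libraries, 40 over a log2 of 1 and 53 to 215 without 1 library. For IL-4 the limit of 1 left 1446 genes in WT (1 member, 4 family genes) and 1292 in KO (2 members, 6 family genes). Interaction calls were 74 in DESeq2, 341 with no filter and 0 to 77 without 1 library, with 1, 2 and 0 to 2 members, which were also the family genes called in DESeq2 and with no filter. Slc30a6 in WT lost its IL-4 call in DESeq2 (0.36), without WT M0 library 2 (0.27) and without WT M2 library 2 (0.31), and Slc39a1 in KO without KO M2 library 2 (0.29). The causes were not tested.

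Signs changed without 1 library only for values near 0. In M2 KO against WT these were Mt1 (-0.0538 to 0.058), Slc39a10 (-0.0946 to 0.0048) and Mtf1 (-0.0366 to 0.093). For IL-4 in WT it was Slc30a1 (-0.15 to 0.0042), and for the interaction Slc30a1 (-0.016 to 0.13) and Mtf1 (-0.0834 to 0.0467).

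No paired analysis was possible because the count columns carry library numbers that the labels do not tie to shared mice or days. With 3 libraries a group and 277 to 1031 Mt2 counts a library, the spread between KO M0 libraries, not counting, set the precision of the metallothionein values.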

Other observations

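Copper handling genes, which share the metallothioneins as a sink, did not move as a group with IL-4. Of 11 tested, 1 rose and 4 fell in WT, and 1 rose and 2 fell in KO, with medians of -0.0075 and -0.12, while 35.4% and 28.4% of all genes were called. Slc31a1, the copper importer, fell in WT (log2 -0.56, SE 0.07, edgeR adjusted p = 9.92e-06) and in KO (-0.67, SE 0.07, adjusted p = 7.87e-06). Sod1, the copper and zinc superoxide dismutase, was at -0.69 in WT (SE 0.10, adjusted p = 8.14e-05) and -1.18 in KO (SE 0.11, adjusted p = 2.22e-06), with an interaction adjusted p of 0.228. Atox1, a copper chaperone, rose in both (0.57, adjusted p = 0.00199, and 0.59, adjusted p = 0.000909).

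Among stress lists that share regulators with metallothioneins, heat shock genes went the other way from Mt1 and Mt2 with IL-4. In WT 6 of 8 tested rose (median log2 1.06) and in KO 5 of 8 (median 0.88), with none falling, beside the same shares of all genes. Hsph1, a co-chaperone, rose by 1.79 in WT (SE 0.09, adjusted p = 2.03e-09) and 1.71 in KO (SE 0.12, adjusted p = 1.63e-07). Of the NRF2 targets 2 rose and 3 fell in WT, and 6 of 8 fell in KO (median -0.54). Txnrd1 rose in WT (0.36, adjusted p = 0.00907) and fell in KO (-0.40, adjusted p = 0.00506), with an interaction adjusted p of 0.0951, so the difference did not pass the threshold. HIF targets mostly fell, as did Mt1 and Mt2. In WT 5 of 8 fell and 2 rose (median -0.36), where 35.4% of all genes were called. In KO 6 of 8 fell and 1 rose (median -0.70), where 28.4% of all genes were called. Of the glucocorticoid response genes 3 rose and 1 fell in WT, of 7 tested (median 0.013, Nr3c1 at -0.40), and 3 rose and none fell in KO, of 8 tested (median -0.05). Klf9, a glucocorticoid-responsive factor and one of the risers, rose by 3.11 in WT (SE 0.13, adjusted p = 5.05e-10) and 2.98 in KO (SE 0.09, adjusted p = 9.83e-11).

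S100a8, a subunit of the zinc-binding protein calprotectin, rose with IL-4 in WT (log2 2.04, SE 0.34, adjusted p = 0.000229) and was at -0.19 in KO (adjusted p = 0.712), with an interaction adjusted p of 0.121. Its highest library had 33 counts, and S100a9, its partner, had 0 counts in 9 of 12 libraries. S100a8 is also among the 9 neutrophil and progenitor markers, of which it alone had counts enough to be tested. The part of other cell types in its values was not tested.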
